A study of Mus musculus with 3 samples.

Results

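The genes described here are the fibroblast growth factor (FGF) ligand genes Fgf1, Fgf2, Fgf5, Fgf7, Fgf10, Fgf18 and Fgf21 and the receptor genes Fgfr1, Fgfr2 and Fgfr3. They were taken by name, each probe being assigned to a gene through the RefSeq accession in the scanner files. All 10 genes were found, on 16 of 39407 probes, among 20876 genes that could be named. Expression was measured on 3 one-colour arrays of RNA from primary cells labelled as endothelial cells of the cavernous tissue of the penis of C57BL/6 mice. The conditions lasted 48 h: normal glucose (labelled 5 mmol), high glucose (labelled 30 mmol), and the latter plus DKK2, a secreted modulator of Wnt signalling, at a dose not stated in the labels. The growth medium of all cells was Medium 199 with 20% heat-inactivated FBS, 1% penicillin/streptomycin, heparin at 0.5 mg/ml and VEGF-A at 5 ng/ml. This growth medium thus held an angiogenic factor and a heparan sulfate analogue. RNA of 3 samples was pooled per array, so each condition had 1 array, there was no replicate check, and no p-value is given.

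FGF ligands are secreted proteins that bind receptor tyrosine kinases of the FGFR family together with heparan sulfate, a sugar chain on cell surface and matrix proteins. Receptor activation runs through the adaptor FRS2 to the ERK kinases and induces feedback inhibitors of the Sprouty and DUSP families. FGF2 is a classical growth factor for endothelial cells. FGF7 and FGF10 are made mainly by mesenchymal cells and act on the epithelial splice form of FGFR2, while FGF21 is an endocrine hormone that needs the co-receptor beta-Klotho.

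Signals were lower on the array of normal glucose, whose 75th percentile was 1201, against 2383 in high glucose and 2417 with DKK2. A log2 level below is the log2 of a probe's signal relative to that percentile of its own array, and each difference is between 2 such levels. Apart from choosing the brightest probe of a gene and summing the signals of markers, levels of different probes were not compared with each other. The error beside a difference is a technical SD from the scanner's error model, 0.20 in the median gene of all 3 comparisons. It does not cover variation between cultures. Of 16 endothelial markers, 14, 16 and 15 were well above background on the arrays of normal glucose, high glucose and DKK2; Erg and Emcn were not in normal glucose and Erg was not with DKK2. All 11 fibroblast, all 8 smooth muscle and pericyte and all 9 adipocyte markers were well above background on every array. Of all probes, 76.7%, 84.7% and 84.0% were so on the 3 arrays, so these counts alone do not show which cell types were present. In such a bulk sample, fewer cells of a type and less RNA per cell cannot be told apart.

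Fgf10 and Fgf7 had their lowest level in normal glucose and their highest with DKK2, and Fgf2 and Fgfr2 had the reverse order. The other members stayed closer together, were read differently by different probes, or lay near background. By the size rule used here, a 2-fold difference with the probe well above background on both arrays, 0 of 9 measured members differed between high and normal glucose, where 8.39% of all genes measured did (2.66% higher and 5.73% lower). With DKK2 against high glucose it was 0 of 8, against 9.94% of all genes (5.09% higher and 4.85% lower). With DKK2 against normal glucose it was 1 of 8, against 20.8% of all genes. That member was Fgf2, on the lower side with 10.3% of all genes; 10.5% were higher. Differences larger than the technical SD were seen for 6 of 9, 6 of 8 and 7 of 8 members in that order, and for 69.4%, 62.6% and 77.5% of all genes, so these counts set the members apart from other genes in no comparison. Each pair of these comparisons shares an array, so their values are not independent.

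**Figure D1:**
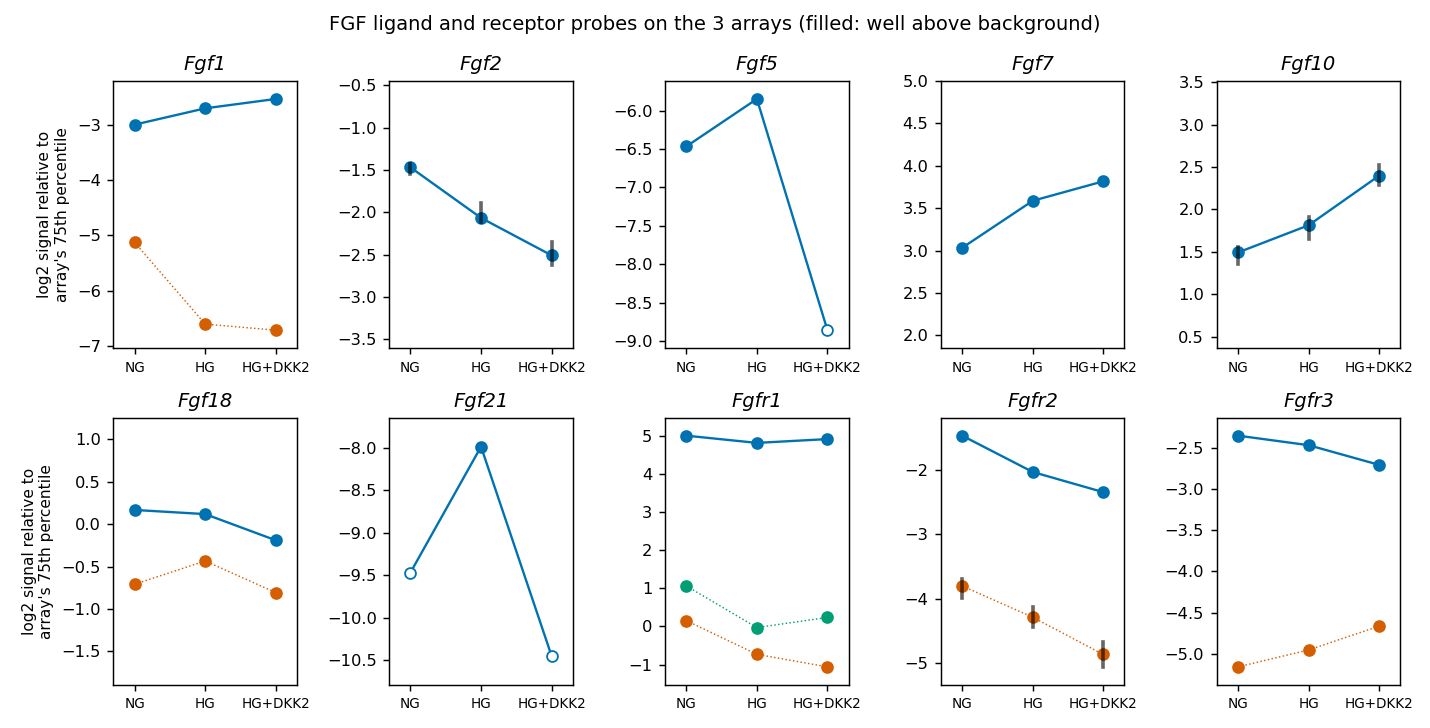
Log2 signal relative to the array's 75th percentile (vertical axis; its range differs between panels) for each probe of the 10 genes on the normal glucose (NG), high glucose (HG) and DKK2 (HG+DKK2) arrays. Solid lines join the brightest probe and dotted lines the other probes, open circles are probes not well above background, and dark bars span the lowest to highest of 9 or 10 spots; Fgf10 and Fgf2 step in opposite directions with bars that do not overlap.

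Fgf10, a mesenchymal ligand with a central role in branching organs, was read by a probe printed 10 times per array. In normal glucose its spots had a log2 level between 1.36 and 1.56 (median 1.5). In high glucose they lay between 1.65 and 1.91 (median 1.83), and with DKK2 between 2.29 and 2.52 (median 2.39). No spot of one array reached the range of another, although spots of an array share 1 RNA pool and are not replicates of a condition. The unscaled signal was 3380, 8373 and 12745. The log2 difference was 0.32 ± 0.20 (technical SD) between high and normal glucose and 0.59 ± 0.20 between DKK2 and high glucose. Between DKK2 and normal glucose it was 0.91, or 1.87-fold, short of the 2-fold rule in the main setting and in the 8 other settings tried.

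Fgf7, also called keratinocyte growth factor, had a single probe with signals of 9834, 28655 and 34085, in the same order of arrays. Its log2 levels were 3.03, 3.59 and 3.82, the order seen for Fgf10. Its larger step was the one between the glucose conditions, at 0.55 ± 0.20, and the step to DKK2 was 0.23 ± 0.20. Over all settings the step to DKK2 was between 0.11 and 0.23, at its lowest within the technical SD. Between DKK2 and normal glucose Fgf7 was at 0.78, or 1.72-fold. The DKK2 step of both genes was read beside fibroblast markers that pointed the other way. With DKK2 against high glucose 11 of 11 were below 0 (median -0.53), 3 of them at least 2-fold. In that comparison 4.85% of all genes were at least 2-fold lower and 5.09% higher (median 0.08). The summed fibroblast signal relative to the 75th percentile was 584, 534 and 390 on the 3 arrays, mostly that of Dcn and Col1a2. In the same comparison macrophage and leukocyte markers were above 0 in 10 of 10 (median 1.32), 6 of them at least 2-fold. Against normal glucose 9 of 10 were above 0 with DKK2 (median 2.09), 7 at least 2-fold, where 10.5% of all genes were higher (median 0.12). The summed signal of these markers, 26.9, 18.5 and 23.9, was mostly that of Itgam. Endothelial markers were above 0 in 12 of 14 in high against normal glucose, where the median of all genes was 0.08. Their sums of 7.29, 8.66 and 9.48 were mostly those of Kdr, Egfl7 and Eng. With DKK2 against high glucose 8 were above and 7 below 0, with 4 at least 2-fold lower (Robo4, Cldn5, Tek and Flt1) and 0 higher. The part of any of these cell types in the Fgf7 and Fgf10 values was not tested.

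The 250 bases before the annotated start of Fgf10 and Fgf7 are shown because these ligands kept the same order over the arrays. They come from RefSeq on GRCm38.p6, whereas the array headers name mm9, and are written 5′ to 3′ on the strand of the gene. Capitals mark matches on either strand to 5 motifs. The first was the GC box bound by Sp1-type factors, GGGCGG. The second was the core of the sites that TCF/LEF factors of the Wnt pathway bind, CTTTGA. The third was the site of AP-1, a factor downstream of ERK signalling, TGANTCA. The others were the TATA box of core promoters, TATAAA, and the E-box bound by helix-loop-helix factors, CACGTG.
Fgf10 (chr13:118714449-118714698, + strand): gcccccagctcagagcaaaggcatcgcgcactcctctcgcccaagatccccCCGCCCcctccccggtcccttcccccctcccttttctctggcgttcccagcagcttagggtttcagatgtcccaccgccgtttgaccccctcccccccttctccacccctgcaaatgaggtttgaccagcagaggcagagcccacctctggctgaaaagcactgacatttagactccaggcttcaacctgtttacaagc
Fgf7 (chr2:126034408-126034657, + strand): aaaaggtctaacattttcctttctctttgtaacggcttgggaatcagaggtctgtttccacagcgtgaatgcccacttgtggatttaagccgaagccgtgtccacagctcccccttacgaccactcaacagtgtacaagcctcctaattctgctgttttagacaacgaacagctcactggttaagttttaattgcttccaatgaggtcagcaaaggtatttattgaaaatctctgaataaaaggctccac
The Fgf10 stretch held 1 GC box match and none of the others, and the Fgf7 stretch held none. Of 32851 such stretches in the table, 32.7% held the GC box, 13.8% the TCF/LEF core, 6.75% the AP-1 site, 12.4% the TATA box and 6.02% the E-box. The GC content was 61.2% for Fgf10 and 43.6% for Fgf7, against a median of 52.4%. A match describes these letters and not a bound site.

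Fgf2 had the order opposite to Fgf10 on a probe also printed 10 times. Its range over the arrays was the widest among the members' brightest probes that were well above background on all 3; Fgf5 and dimmer probes of Fgf1, Fgfr1 and Fgfr2, described further on, had wider ones. Its spots had log2 levels of -1.54 to -1.43 (median -1.46, 9 spots after 1 outlier) in normal glucose, -2.11 to -1.89 (median -2.08) in high glucose and -2.63 to -2.35 (median -2.53) with DKK2. Again no spot of one array reached the range of another. The unscaled signals were 434, 569 and 425, so the order rests on the scaling between arrays. The log2 difference was -0.60 ± 0.20 in high against normal glucose and -0.44 ± 0.20 with DKK2 against high glucose. Between DKK2 and normal glucose Fgf2 fell by 1.04 on the log2 scale, 2.05-fold lower, and it lay between -1.08 and -1.02 in all 8 other settings tried.

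Fgfr2, the receptor gene whose splice forms bind FGF7 and FGF10 or FGF2, was read by 2 probes that gave the same order. On the brighter one the signals were 433, 581 and 475 and the log2 levels -1.47, -2.04 and -2.35. On the dimmer one, printed 10 times, the medians were -3.81, -4.3 and -4.88, and the scaled spots of the 3 arrays did not overlap. Unscaled, its spots lay at 76.1 to 93.2, 110 to 136 and 72.7 to 95.4. Those of normal glucose and DKK2 thus overlapped, so the order of both probes rests on the scaling between arrays. Spots of an array are not replicates of a condition. The differences were -0.56 and -0.48 between high and normal glucose, and -0.31 and -0.58 between DKK2 and high glucose, each ± 0.20 or 0.21. Between DKK2 and normal glucose the brighter probe was at -0.87 and the dimmer one at -1.06, so the 2-fold rule was met on the dimmer probe only. Over the pair of differences (high against normal glucose, DKK2 against high glucose), the gene nearest to Fgf2 among 75 genes of the FGF lists was Fgfr2, at a distance of 0.13 log2 units over 3 arrays. Hs3st1 and Frs3 followed at 0.30 and 0.34. The summed signal of the 8 smooth muscle and pericyte markers was 82.7, 49.8 and 28.6 on the 3 arrays, mostly that of Acta2, Pdgfrb and Tagln. Of the 8 markers 4 were above and 4 below 0 in high against normal glucose (median 0.09). With DKK2 against high glucose 8 of 8 were below 0 (median -0.51). The median of all genes was 0.08 in both comparisons. The fibroblast markers, given above, were below 0 in 7 of 11 and in 11 of 11. Their part in these values was not tested.

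The same stretches of Fgf2 and Fgfr2 are shown because Fgfr2 was the gene nearest to Fgf2.
Fgf2 (chr3:37348403-37348652, + strand): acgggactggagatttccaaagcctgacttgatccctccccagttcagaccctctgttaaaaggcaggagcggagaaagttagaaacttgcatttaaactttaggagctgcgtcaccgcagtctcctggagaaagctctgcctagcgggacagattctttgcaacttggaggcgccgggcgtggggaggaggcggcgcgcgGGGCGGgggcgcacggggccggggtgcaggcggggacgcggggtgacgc
Fgfr2 (chr7:130266809-130267058, - strand): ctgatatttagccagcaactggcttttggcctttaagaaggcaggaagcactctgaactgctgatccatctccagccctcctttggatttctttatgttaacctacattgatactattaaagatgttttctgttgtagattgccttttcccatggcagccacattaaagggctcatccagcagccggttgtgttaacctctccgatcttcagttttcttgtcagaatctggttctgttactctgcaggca
The Fgf2 stretch had a GC content of 62.4% and 1 match to GGGCGG, 49 bases before the start. The Fgfr2 stretch had 44.0% and no match to any of the 5 motifs, so none of these motifs was found in both genes.

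**Figure D2:**
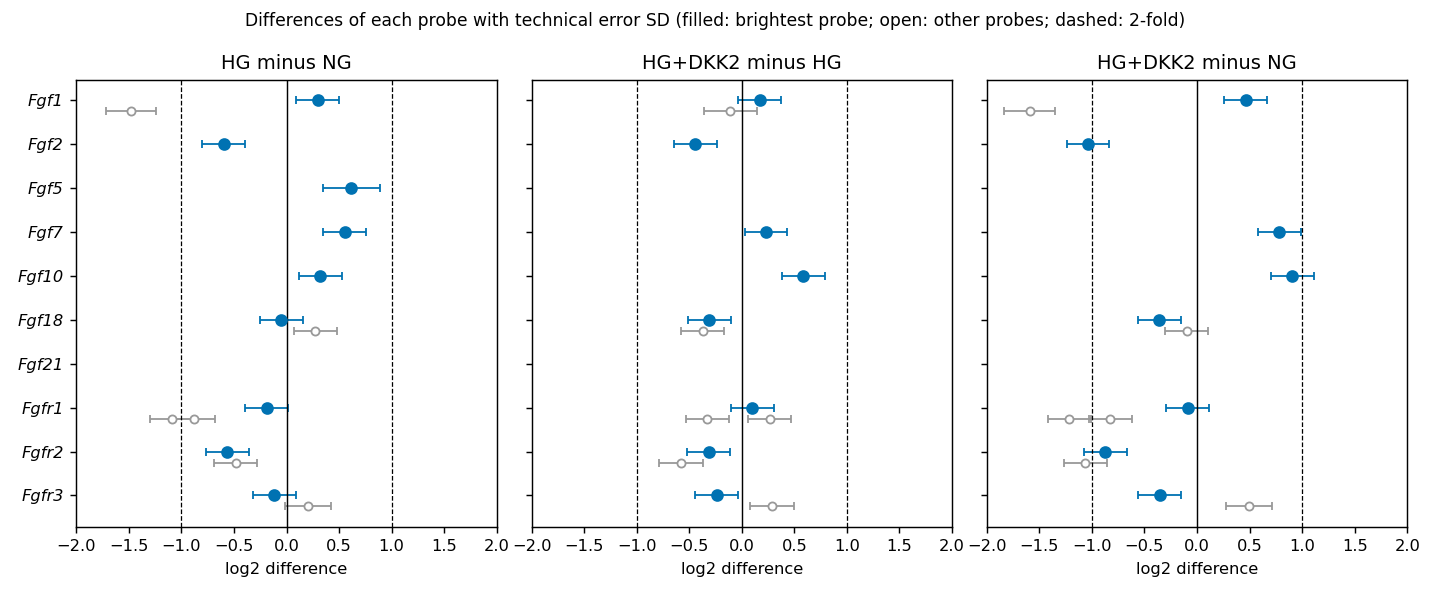
Log2 difference (horizontal axis) of every probe well above background on both arrays, with its technical error SD, in the 3 comparisons (NG, normal glucose; HG, high glucose). Fgf2 is past the dashed 2-fold line between DKK2 and normal glucose (-1.04), Fgf1 has probes on both sides of 0 in every panel, and Fgf21 has no measured difference.

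The remaining ligands gave smaller or less certain differences. Fgf18, a ligand known from bone and cartilage growth, had 2 probes with signals of 1351, 2590 and 2121 and of 736, 1766 and 1383. Both were lower with DKK2 than in high glucose, at -0.31 and -0.37, and they disagreed between high and normal glucose (-0.05 and 0.27). Fgf1, which binds all FGF receptors, had 2 probes that gave opposite answers. The brighter one, with signals of 151, 368 and 420, was at 0.30 ± 0.20 between high and normal glucose and 0.47 between DKK2 and normal glucose. The dimmer one, with signals of 34.4, 24.4 and 23.0, was at -1.48 ± 0.24 and -1.59 in the same comparisons. No direction can be given for Fgf1 from these probes.

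Fgf5, best known for ending the growth phase of hair, lay near background on its single probe. Its signals were 13.6, 41.3 and 5.22 in the order normal glucose, high glucose and DKK2; in the last it was not well above background. The difference between high and normal glucose was 0.62 ± 0.27, but -1.32 with normexp background correction. That setting adds an offset of 50 before the scaling, more than either signal. The value of -1.32 thus depends on the offset and the scaling as well as on the background correction, and no firm direction can be given. With DKK2 Fgf5 was at least 5.26-fold lower than in high glucose and at least 3.43-fold lower than in normal glucose. These bounds set the brighter array against the lowest signal called above background on the DKK2 array, 7.97. They were computed in the main setting only, from 1 spot per array, and were not tried with normexp.

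Fgf21, a hormone of fasting and metabolic stress made mainly by the liver, passed the background flag on the high glucose array alone. Its signal there was 9.41, close to the lowest signal called above background on that array (7.22), and the signals in normal glucose and with DKK2 were 1.70 and 1.73. Against DKK2 the bound was at least 1.20-fold higher in high glucose, and against normal glucose no fold could be given. Klb, which encodes its co-receptor beta-Klotho, was not well above background in normal glucose (signal 7.04) and had signals of 38.6 in high glucose and 63.8 with DKK2, a difference of 0.70. The Fgf21 stretch is shown because this gene is known as a target of the glucose-sensing factor ChREBP, which binds paired E-box-like elements.
Fgf21 (chr7:45615491-45615740, - strand): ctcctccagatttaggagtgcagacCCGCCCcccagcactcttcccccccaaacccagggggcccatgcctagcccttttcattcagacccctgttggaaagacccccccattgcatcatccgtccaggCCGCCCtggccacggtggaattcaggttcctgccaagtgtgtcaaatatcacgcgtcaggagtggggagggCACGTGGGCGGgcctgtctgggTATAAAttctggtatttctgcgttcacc
It held 1 match to CACGTG 50 bases before the start, overlapping 1 of 3 matches to GGGCGG, and 1 to TATAAA 28 bases before the start. With a signal this close to background, nothing about this stretch can be read from the arrays.

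The receptor genes Fgfr1 and Fgfr3 were probe-dependent. Fgfr1, the main FGF receptor of mesenchymal and endothelial cells, had 3 probes. The brightest, with signals of 38492, 66943 and 72763, was at -0.19 ± 0.20 between high and normal glucose, 0.10 with DKK2 against high glucose and -0.09 between DKK2 and normal glucose. The other 2, with signals of 1336, 1436 and 1159 and of 2508, 2334 and 2847, were at -0.88 and -1.09 between high and normal glucose and at -1.21 and -0.83 between DKK2 and normal glucose. All 3 were thus below 0 in both comparisons with normal glucose, by sizes that differed beyond the technical SD. Fgfr3, a receptor known for restraining bone growth, had signals of 235, 430 and 370 on its brighter probe and 33.6, 76.9 and 95.2 on its dimmer one. It was at -0.12, -0.24 and -0.35 on its brighter probe and at 0.21, 0.29 and 0.49 on its dimmer one in the comparisons of high with normal glucose, DKK2 with high glucose and DKK2 with normal glucose. Of the 5 members with more than 1 probe, 3 had probes on both sides of 0 in the first comparison (Fgf1, Fgf18 and Fgfr3), 3 in the second (Fgf1, Fgfr1 and Fgfr3) and 2 in the third (Fgf1 and Fgfr3).

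**Figure D3:**
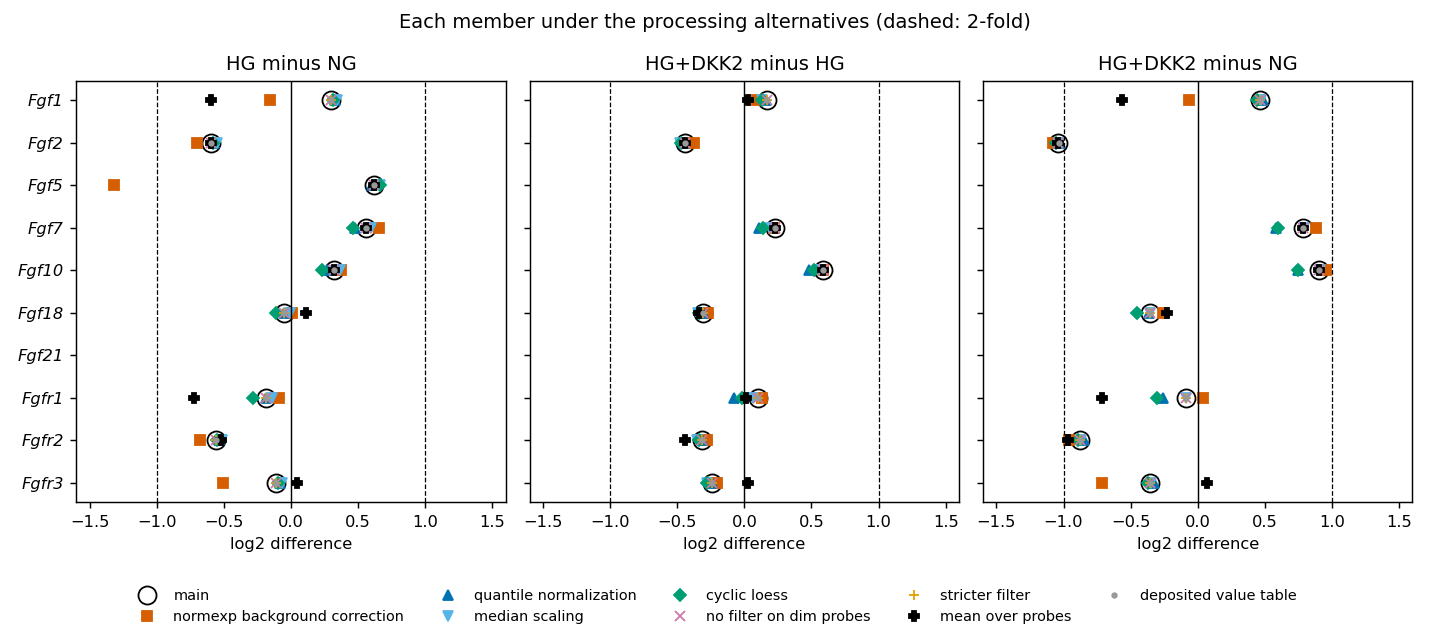
Log2 difference (horizontal axis) of each member in the main setting (open circle) and under 8 processing alternatives (coloured symbols) in the 3 comparisons (NG, normal glucose; HG, high glucose; dashed lines, 2-fold). Fgf2, Fgf7, Fgf10 and Fgfr2 stay on one side of 0 in every panel, while Fgf5 moves from 0.62 to -1.32 with normexp.

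Of the 17 other FGF family genes, 11 were measured in high against normal glucose, with 0 higher and 2 lower by the 2-fold rule (median 0.01, against 0.08 over all genes). In DKK2 against high glucose 12 were measured, with 0 higher and 1 lower (median -0.02, all genes 0.08). In DKK2 against normal glucose 11 were measured, with 1 higher and 2 lower (median -0.41, all genes 0.12). Of all genes, 2.66% were higher and 5.73% lower in the first of these comparisons. In the second the shares were 5.09% and 4.85%, and in the third 10.5% and 10.3%. Fgfrl1, which encodes an FGF receptor without a kinase domain, fell with DKK2: its signals were 10202, 20916 and 10139, a difference of 0.05 ± 0.20 in high against normal glucose and -1.07 ± 0.20 with DKK2 against high glucose. The latter was between -1.16 and -0.99 in the other settings. Fgfr4, the receptor that pairs with beta-Klotho in liver, was at -2.05 in high against normal glucose on 1 probe and at -0.03 on its other probe, so its count among the lower genes rests on 1 probe. Fgf13, an intracellular FGF homologue with signals of 132, 116 and 145, fell by 1.18 in high against normal glucose. Fgf14, of the same subfamily, was 1.58 higher with DKK2 than in normal glucose on 1 probe, -0.13 on another, and -0.99 with normexp.

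The other ligands of the family were dim or short of the 2-fold rule. With signals between 7.97 and 213, Fgf8, Fgf9, Fgf11, Fgf15, Fgf17 and Fgf22 had differences between -0.89 (Fgf9, DKK2 against high glucose) and 0.51. Fgf12 was measured between DKK2 and high glucose only (-0.50). Fgf4 was well above background with DKK2 only and Fgf6 in high glucose only, at signals of 10.6 and 14.5. Fgf3, Fgf16 and Fgf20 were not well above background on any array. Fgf23, the phosphate hormone of bone, had 1 probe with signals of 25851, 30568 and 30840 and another at 8.25, 5.63 and 5.79 that was not well above background, so no level can be given for the gene.

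Proteins that present FGFs to their receptors held the largest differences of the 5 lists in both comparisons with DKK2. Among 18 genes for co-receptors, carriers and heparan sulfate core proteins, 16 were measured in high against normal glucose. At least 2-fold lower were 3 and higher 0 (median -0.22), against 5.73% and 2.66% of all genes. With DKK2 against high glucose 4 of 17 were lower and 1 higher (median -0.21), against 4.85% and 5.09% of all genes. With DKK2 against normal glucose 5 of 16 were lower and 2 higher (median -0.42), against 10.3% and 10.5% of all genes. The glypicans Gpc2, Gpc3 and Gpc6 were among the lower ones. Glypicans are heparan sulfate proteins anchored to the cell surface. Not all of them fell with DKK2 against high glucose: Gpc1 was at 0.54 and Gpc4 at -0.06. In high against normal glucose Gpc1 was at -0.29 and Gpc4 at -0.94. Gpc3 had signals of 181, 165 and 25.3 and fell by 2.72 with DKK2 against high glucose (-1.33 with normexp) and by 1.12 in high against normal glucose. Gpc6, with signals of 1360, 1785 and 637, fell by 1.51 with DKK2. Gpc2 fell by 1.52, but at a signal of 31.3 in high glucose, and was at -0.20 with normexp. Adipocyte markers, at summed signals of 19.8, 23.8 and 10.3, mostly that of Fabp4, were at least 2-fold lower with DKK2 against high glucose in 5 of 9 (median -1.09). The part of these and of the fibroblast markers in the values of Gpc2, Gpc3 and Gpc6 was not tested. The syndecan gene Sdc4 fell by 1.08 in high against normal glucose (-0.97 in the mildest of the other settings) and was at -1.43 in DKK2 against normal glucose.

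Fgfbp3, which encodes a secreted carrier that releases FGFs from the matrix, was the gene of that list past the 2-fold rule on the higher side with DKK2 against high glucose. Against normal glucose it was joined by the syndecan gene Sdc1, at 1.41 and 1.25. Fgfbp3 had signals of 734, 1306 and 3921, with a difference of -0.16 ± 0.20 in high against normal glucose and 1.57 ± 0.20 with DKK2 against high glucose. Over the other settings the latter was between 1.53 and 1.57. Flrt3, a membrane protein that binds FGFR1, fell by 1.28 with DKK2, and its 3 probes gave values between -1.32 and -1.28. Of 15 heparan sulfate synthesis and editing enzymes, 0 were past the 2-fold rule in high against normal glucose (13 measured) and in DKK2 against high glucose (14 measured). In DKK2 against normal glucose 1 of 13 was higher: Hpse, the heparanase gene, at 1.24 (0.55 on its dimmer probe). Of all genes 10.5% were higher in that comparison. Of 12 receptor adaptor genes, Frs2 and Grb2 among them, 0 were past the rule in any of the 3 comparisons, with values between -0.69 and 0.97. The shares of all genes past the rule were 8.39%, 9.94% and 20.8%, in the order of comparisons used above.

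The feedback inhibitors and target genes that FGF receptors induce were divided between both sides of 0 in high against normal glucose (8 above, 8 below) and in DKK2 against high glucose (7 above, 9 below). In DKK2 against normal glucose 4 were above and 12 below. Of 16 measured in high against normal glucose, 1 was higher and 2 lower (median -0.19), and in DKK2 against high glucose 0 were higher and 2 lower (median -0.04). In DKK2 against normal glucose 0 were higher and 1 lower (median -0.43, all genes 0.12). The shares of all genes higher and lower were 2.66% and 5.73%, 5.09% and 4.85%, and 10.5% and 10.3%, in that order of comparisons. Spry1, a Sprouty inhibitor of receptor tyrosine kinase signalling, had signals of 4903, 15621 and 4022. It was at 0.68 ± 0.20 in high against normal glucose, fell by 1.98 with DKK2 against high glucose and fell by 1.29 against normal glucose. Il17rd, the SEF inhibitor of FGF receptors, was at 0.67 and then fell by 1.16 with DKK2. Both differences of each gene use the high glucose array. Spry2 rose by 1.22 in high glucose (0.33 with normexp). Dusp4 fell by 1.20, with unscaled signals of 568 in normal and 490 in high glucose. Dusp5 fell by 1.00 at unscaled signals of 31.7 and 31.3, so its fall rests on the scaling between arrays. With median scaling Dusp5 was at -0.96, short of the 2-fold rule. Dusp6 and Etv5, common readouts of FGF signalling, were at 0.13 and 0.08 in high against normal glucose and at -0.05 and -0.63 with DKK2 against high glucose. Others of the list were further from 0 in the first comparison. Etv4 was at -0.80 (-1.16 on its dimmer probe) and then 0.58, and Spry4 at 0.31 and then -0.54.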

How the data were processed

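Each of the 3 deposited scanner files gives a linear processed intensity for every spot, made by the authors with background subtraction in Feature Extraction 11.5.1.1, per the file headers, with flags for outliers and for signal well above background. The deposited value table holds intensity as well: 99.9% of its values matched the scanner's spot mean to a relative 0.001. Of 43020 non-control spots per array, 110, 115 and 136 outliers were left out in normal glucose, high glucose and DKK2, and 0 were saturated. Spots were averaged per probe as log2 signal minus the array's 75th percentile. The background flag of a probe needed 50% of its spots or more. Of 39407 probes, 27496 matched 1 gene symbol through a RefSeq or Ensembl identifier, and 11911 had no match and carry no name. A gene was read on its brightest probe well above background on at least 1 array; each probe of a member is also given. With 1 array per condition nothing was tested. Differences are called by a 2-fold rule, and simulated data were used to check the counting only. The simulation held probes above background on all arrays and no variation between cultures. It does not measure how reliable a 2-fold call is.

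The members, gene lists and rule for named genes were chosen with earlier results of these data known. The rule took every member and every FGF family gene above background. It also took up to 4 genes per other list and comparison with the largest differences past 2-fold. Sdc1, Flrt3, Frs2, Grb2, Dusp6, Etv5, Klb, Gpc1, Gpc4, Etv4 and Spry4, outside this rule, were added after their values were seen. Alternatives were normexp on the median signal with an offset of 50, quantile, median and cyclic loess scaling, no filter or a signal of at least 100, averaging a gene's probes, the value table of the series, and 1.5-fold and 3-fold rules. Normalization used limma 3.58.1 (R 4.3.3); counts and plots used pandas 2.3.3, numpy 2.4.6 and matplotlib 3.10.9 under Python 3.11.15. With so few arrays the precision is low, and condition cannot be told apart from slide position. In the same order of arrays, other markers passing the background flag were 7, 7 and 6 of 7 for skeletal muscle, 2, 4 and 5 of 5 for epithelium, and 6 on each array of 6 for Schwann cells and glia. Of all probes 76.7%, 84.7% and 84.0% passed the flag.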

Additional observations from a re-analysis of the deposited data

How the results depend on the processing

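Of the measured member differences, 5 of 9 in high against normal glucose, 6 of 8 in DKK2 against high glucose and 5 of 8 in DKK2 against normal glucose kept their side of 0 under all 8 alternatives to the scaling, background, filter, probe and source. Fgf2, Fgf7, Fgf10 and Fgfr2 did so in all 3 comparisons. The count of members at least 2-fold apart moved as follows. In high against normal glucose it was 1 in place of 0 with normexp (Fgf5), 1 when dim probes were kept, and 2 with the 1.5-fold rule. In DKK2 against high glucose it was 2 in place of 0 without the filter and 1 with the 1.5-fold rule. In DKK2 against normal glucose it was 2 in place of 1 without the filter, 4 with the 1.5-fold rule and 0 with the 3-fold rule. Of all genes, the 1.5-fold rule called 27.5%, 24.4% and 43.4% in these comparisons, in that order, and the 3-fold rule 7.93% in the last. Fgf14, at 1.58 between DKK2 and normal glucose, reversed to -0.99 with normexp. Normexp moved the median of all genes by -0.34 in high against normal glucose and -0.37 in DKK2 against normal glucose, with 170 genes higher and 3942 lower in the former (446 and 961 in the main setting) and 942 and 4004 in the latter (1744 and 1724). The setting adds an offset of 50 to every spot before the scaling. Its values for probes with signals below that offset thus depend largely on offset and scaling. The part of the offset in the shift of all genes was not tested. With normexp 8 other FGF family genes were at least 2-fold lower in high against normal glucose, against 2. Keeping dim probes gave 1099 genes higher and 2129 lower in high against normal glucose and 1312 and 1349 in DKK2 against high glucose (908 and 864 in the main setting), and 2674 and 2339 in DKK2 against normal glucose; the stricter filter, which tests fewer genes, gave 218 and 583, 395 and 491, and 1059 and 1136. Signal over background limits Fgf5 with DKK2 and Fgf21 to bounds. No paired analysis was possible because each condition had 1 array and the labels give no replicate numbers.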
